A study of Mus musculus with 6 samples.

Results

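The genes described here are those that write, maintain and remove DNA methylation: the methyltransferase genes Dnmt1, Dnmt3a, Dnmt3b and Dnmt3l, the maintenance factors Uhrf1 and Hells, the TET genes Tet1, Tet2 and Tet3, and Tdg. They were taken by name for their roles, not by a threshold on a measured value, although earlier results of these data were known, and all 10 were found by Ensembl identifier among the 43309 genes of the count table and passed the filter that left 16823 genes for testing. The libraries came from mouse embryonic stem cells (mESCs) of strain J1 (129SV), grown without feeders in serum medium on gelatin, and were prepared with the TruSeq Stranded mRNA kit. The 3 control lines carried Zbtb24 as 2lox/+, an intact loxP-flanked allele beside a wild-type allele, and the other 3 lines carried 1lox/1lox, the recombined allele on both chromosomes, and were labelled knockout. The paper describes the lines of each genotype as independently derived, and each gave 1 library. By that description the replicates measure the spread between clones of a genotype. The comparison asks how the transcripts of this machinery differed between the genotypes of Zbtb24, a zinc finger gene mutated in ICF syndrome, an inherited immunodeficiency with unstable, undermethylated centromeres.

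DNA methylation is set on unmethylated cytosines by the de novo enzymes DNMT3A and DNMT3B, whose activity is raised by DNMT3L, a relative without catalytic activity of its own that is typical of germ cells and pluripotent cells. After replication, UHRF1 recognises hemimethylated CpG sites and brings in DNMT1, and the chromatin remodeller HELLS (LSH) gives access to packed DNA. TET enzymes oxidise 5-methylcytosine, and the glycosylase TDG cuts out the oxidised products. DNMT3B, HELLS, CDCA7 and ZBTB24 are all encoded by genes mutated in ICF syndrome.

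Counted fragments ranged from 25042261 to 28838924 per library, and values below are TMM-scaled cpm (counts scaled to a common library size) unless stated. Zbtb24 itself was counted in 489 to 512 fragments in the control lines and in 888 to 1039 in the lines labelled knockout, which is 0.99 on the log2 scale (standard error, SE, 0.05, edgeR quasi-likelihood test, adjusted p = 4.32e-23). The count of the whole gene thus ran against the label and does not show which exons were transcribed, so the second group is called the libraries labelled knockout. Over the whole table, 69.5% of the genes tested had an adjusted p of at most 0.05, and as percentages of all genes tested 34.4% rose and 35.2% fell. The spread between lines of a group beyond counting noise was estimated as a coefficient of variation of 2.00%, a value common to all genes. Small differences were thus called, and the size of each change matters more than its call. How independent the lines of a group were cannot be seen from the counts, and the p-values treat them as independent.

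The pluripotent identity of the lines was checked with 12 markers, all of which were tested and well expressed. Pou5f1 was at 1146 ± 24.2 cpm in the control lines and 1315 ± 15.9 in the lines labelled knockout, and Sox2 at 359 ± 9.46 and 484 ± 12.6 (SD, n = 3 lines each). Nanog was higher in the latter (log2 fold change 1.13, SE 0.02), and Zfp42 lower (-0.77, SE 0.02), where the genes within 10 Mb had medians of 0.53 and -0.42. Of the 12 markers 8 were higher and 4 lower, and the largest differences, named after their values were seen, were those of Klf4 (1.90), Tfcp2l1 (1.56, with a median of 0.61 around it) and Esrrb (1.16). Summed over the list the markers gave 5469 to 5574 cpm in the control lines and 6776 to 6870 in the lines labelled knockout. Markers of other states moved with the groups too. Their counts are to be read against the 69.5% of all genes tested that were called. All 7 primed epiblast markers were called, 6 of them lower in the libraries labelled knockout, with sums of 248 to 250 cpm against 138 to 139. Of 7 fibroblast markers 6 were tested and all 6 were lower, with sums from 56.01 to 59.5 cpm down to 9.53 to 10.1. Col1a1 alone had means of 41.1 and 3.93 cpm. Postn was near the floor, at 7, 8 and 11 fragments in the control libraries and 0 in every library labelled knockout. Of 6 trophoblast markers 5 were called, 4 of them lower, and the sums were 293 to 303 cpm against 83.0 to 87.8. Endoderm markers summed to 5.72 to 6.33 cpm and 5.28 to 6.99, with Afp removed by the filter and 4 of the 6 tested called, 1 higher and 3 lower. For mesoderm the sums were 17.1 to 18.6 and 11.2 to 12.6 cpm, with Mesp1 removed and 4 of 6 called, 2 in each direction, and for neural markers 281 to 286 and 262 to 270 cpm, with all 4 tested genes called, 2 in each direction. The part of these shifts in the results below was not tested, and in bulk RNA fewer cells with a transcript cannot be told apart from less transcript per cell.

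The promoters of the genes with the largest fall and the largest rise, and of a maintenance gene whose change did not pass the test, are shown for their differing sequence. They are the 250 bases before the start in RefSeq for GRCm38.p6, written 5′ to 3′ on the strand of the gene, and capitals mark GC boxes (GGGCGG on either strand), the element read by SP and KLF factors. The Dnmt3b window lies at chr2:153649199-153649448 on the plus strand, that of Tet2 at chr3:133544391-133544640 on the minus strand and that of the downstream Uhrf1 start at chr17:56304063-56304312 on the plus strand, and no annotated exon overlapped these 3 windows.
Dnmt3b: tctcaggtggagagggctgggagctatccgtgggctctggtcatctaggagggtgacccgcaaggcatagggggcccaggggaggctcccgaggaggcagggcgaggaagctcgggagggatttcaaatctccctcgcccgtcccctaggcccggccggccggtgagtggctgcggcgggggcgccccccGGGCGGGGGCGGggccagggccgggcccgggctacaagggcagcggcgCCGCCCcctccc
Tet2: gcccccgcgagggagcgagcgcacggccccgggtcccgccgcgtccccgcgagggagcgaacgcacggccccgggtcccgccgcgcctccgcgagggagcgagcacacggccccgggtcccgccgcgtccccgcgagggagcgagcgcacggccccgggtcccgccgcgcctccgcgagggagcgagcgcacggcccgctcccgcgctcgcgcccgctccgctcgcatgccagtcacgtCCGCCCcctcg
Uhrf1: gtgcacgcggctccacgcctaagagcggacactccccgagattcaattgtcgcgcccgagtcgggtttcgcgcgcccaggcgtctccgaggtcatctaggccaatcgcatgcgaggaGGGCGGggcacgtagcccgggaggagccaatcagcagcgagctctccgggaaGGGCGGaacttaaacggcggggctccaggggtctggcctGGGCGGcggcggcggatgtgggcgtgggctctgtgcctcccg

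The Tet2 window holds 51 CpG dinucleotides, more than 99.9% of the 32841 RefSeq promoter windows,. The Dnmt3b window holds 21 CpG dinucleotides with 3 GC boxes, and the downstream Uhrf1 window 30 with 3. The upstream Uhrf1 window, whose sequence is not shown, holds 10 with 1. All 10 genes had at least 1 window in the table, 17 in all, with a median of 17 CpG dinucleotides where the median of all windows was 6. The lowest numbers were found at the 3 starts of Dnmt3l, with 3 to 5 CpG dinucleotides, and at the far upstream start of Dnmt1, with 2. A GC box lay in 12 of the 17 windows, which belong to all genes but Tdg, and in 32.7% of all windows. The CCAAT box (CCAAT, either strand) was found in 6 of the 17 and in 33.9% of all windows, the E-box CACGTG in 3 of the 17 and in 6.02%, and the E2F-like TTCCCGC in 2 of the 17, those of Hells and the upstream Uhrf1 start, and in 3.82%. Windows of 1 gene can overlap, as a pair of Dnmt3a windows does, so they are not independent. Which start was used in these cells cannot be seen from counts per gene.

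Of the 10 genes, 8 were called, 5 lower and 3 higher in the libraries labelled knockout, which as a share is near the background given above. By role, all 3 de novo genes fell, the 3 maintenance genes stayed within a log2 change of 0.1, and of the 4 genes of oxidation and excision Tet1, Tet2 and Tdg rose and Tet3 fell. The groups did not overlap in 9 of the 10 genes, against 71.5% of all genes tested. The median log2 fold change was -0.07 over the 10 genes and 0.00 over all genes tested. Beyond a log2 change of 1 were Dnmt3b, among the 11.8% of genes called that far down, and Tet2, among the 5.21% called that far up.

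**Figure D1:**
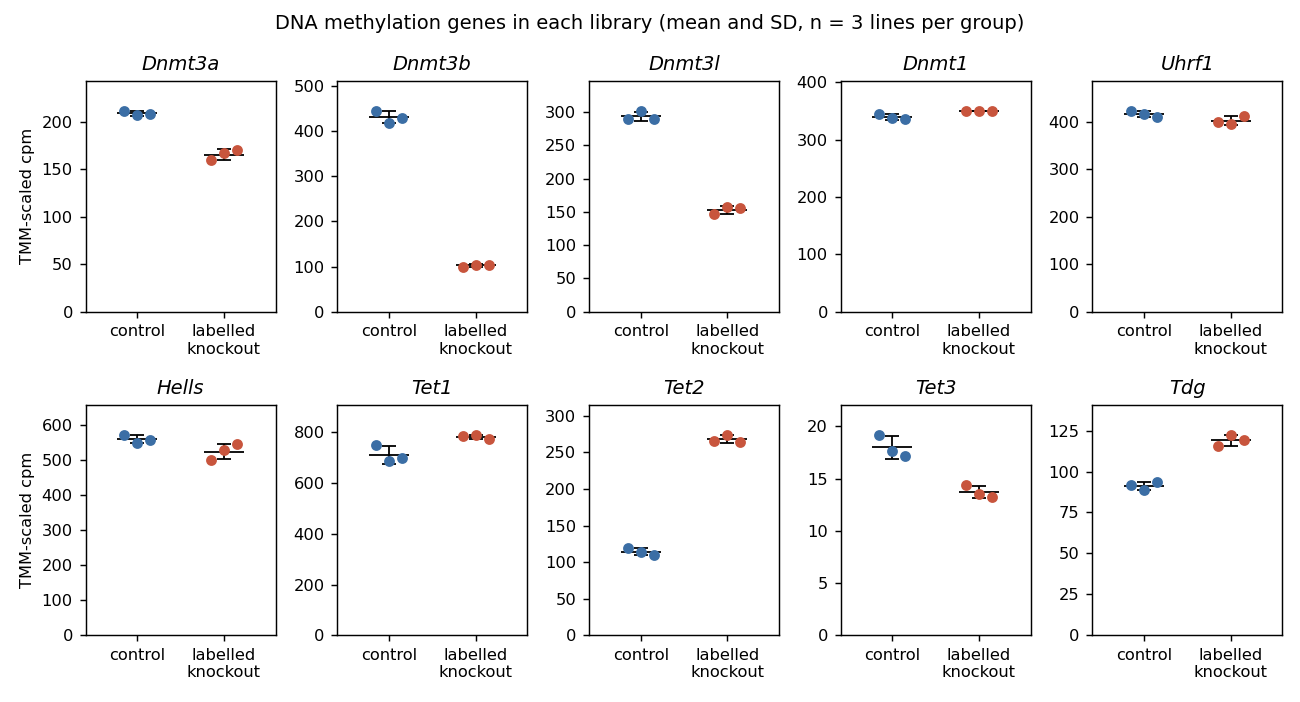
TMM-scaled cpm of the 10 genes (y axis, from 0, with its own scale in each panel) in the 3 control libraries and the 3 libraries labelled knockout, with group means and SD. Dnmt3b fell from 419 to 444 cpm to 99.2 to 105 and Tet2 rose from 110 to 119 cpm to 264 to 274, whereas the points of Uhrf1 overlapped between the groups.

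Dnmt3b (chromosome 2, 153649450 to 153687730 on mm10, plus strand), which encodes the main de novo enzyme of the early embryo, showed the largest change. It was at 444, 419 and 430 cpm in control lines 1 to 3 and at 99.2, 105 and 104 cpm in the lines labelled knockout 1 to 3. The lines of each group lay close together, and the groups were far apart. The log2 fold change was -2.07 (SE 0.03, adjusted p = 6.72e-47), a level 4.21-fold lower, and 767 of the 16823 genes tested had a lower log2 fold change. Leaving out any single library gave values from -2.095 to -2.05. The nearby Dnmt3c, a rodent copy of Dnmt3b, was counted in 7 to 13 fragments in the control lines and 2 to 4 in the lines labelled knockout, and fragments that map to both genes had been discarded.

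Dnmt3l (chromosome 10, 78041947 to 78063622, plus strand), the stimulating cofactor, came next. It was at 290, 301 and 290 cpm in the control lines and at 147, 157 and 156 cpm in the lines labelled knockout, without overlap. On the log2 scale this was -0.94 (SE 0.03, adjusted p = 6.97e-33), 1.92-fold lower. Dnmt3a (chromosome 12, 3806007 to 3914443, plus strand), the other catalytic de novo gene, was at 211, 207 and 208 cpm against 160, 167 and 170, again without overlap. Its log2 fold change of -0.33 (SE 0.03, adjusted p = 1.28e-15) left 79.3% of the control level. All 3 genes therefore fell, each by a different amount, and the log2 fold changes of Dnmt3l and Dnmt3a ranged from -0.96 to -0.91 and from -0.35 to -0.31 with single libraries left out. Dnmt3a was no longer called (adjusted p = 0.352) in edgeR's exact test with a common dispersion of 0.04, far above the estimate.

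Because the de novo genes fell by unequal amounts, their composition changed. Per length of the longest transcript, Dnmt3b made up 82.5%, 81.9% and 82.2% of the summed Dnmt3a and Dnmt3b level in the control lines and 58.2%, 58.4% and 57.7% in the lines labelled knockout. The difference of -24.1 percentage points was far beyond the spread between lines (SD 0.29 and 0.38, n = 3), with p = 0.1 in an exact permutation test, two-sided, the smallest that 3 lines against 3 allow. The share follows from the changes of Dnmt3a and Dnmt3b given above, so the test adds no separate evidence. The summed level fell from 121 ± 3.23 to 40.8 ± 1.19 cpm per kilobase of transcript (FPKM; SD, n = 3). The ratio of Dnmt3l to Dnmt3b in FPKM rose from 1.62 ± 0.08 to 3.54 ± 0.04, while that of Dnmt3l to Dnmt3a went from 7.48 ± 0.23 to 4.91 ± 0.07 (SD, n = 3). Gene counts do not separate catalytic from inactive splice forms of Dnmt3b, or the long from the short form of Dnmt3a.

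The maintenance genes differed little between the groups. Dnmt1 (chromosome 9, 20907209 to 20959888, minus strand), the maintenance methyltransferase gene, was at 344, 338 and 335 cpm in the control lines and at 349, 350 and 350 cpm in the lines labelled knockout. The ranges did not overlap, but the gap between them was narrower than the range of the control lines. The log2 fold change of 0.04 (95% interval -0.004 to 0.09) had an adjusted p of 0.094, and it turned to -0.004 when libraries were scaled by their totals alone. Without control line 1 the adjusted p was 0.0418, and without the genes of chromosomes 1, 6, 8 and Y it was 0.0287. Uhrf1 (chromosome 17, 56303321 to 56323486, plus strand), which reads hemimethylated sites, was at 422, 415 and 410 cpm against 399, 395 and 413, and its groups overlapped. Its log2 fold change was -0.05 (95% interval -0.095 to 0.001, adjusted p = 0.0788), and the adjusted p was 0.0118 without line 3 labelled knockout. With library totals alone it was -0.095 (adjusted p = 0.000339). Log2 changes of 0.1 or more in either direction lie outside both intervals under TMM scaling, and that bound does not extend to library totals alone.

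Hells (chromosome 19, 38930915 to 38971051, plus strand), the remodeller and the other ICF gene of the set beside Dnmt3b, was called lower by a small amount. It was at 572, 550 and 557 cpm in the control lines and at 501, 528 and 545 cpm in the lines labelled knockout. The highest of these lay just under the lowest control value. The log2 fold change was -0.09 (SE 0.03, adjusted p = 0.00112), 93.8% of the control level, and it did not pass against a minimum fold of 1.2. It was -0.06 without line 1 labelled knockout (adjusted p = 0.0458) and -0.14 with library totals alone. In FPKM the ratio of Uhrf1 to Dnmt1 was 2.01 ± 0.01 in the control lines and 1.88 ± 0.04 in the lines labelled knockout, and that of Dnmt1 to Dnmt3b rose from 0.58 ± 0.01 to 2.51 ± 0.07 (SD, n = 3).

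Uhrf1, Hells and Dnmt1 are known to be transcribed most in S phase, so 19 S-phase and replication genes are given beside them. Of these, 15 were called, 10 up and 5 down, where 69.5% of all genes tested were called. Their median log2 fold change was 0.16. Mcm6 and Mcm3, subunits of the replicative helicase, had log2 fold changes of 1.07 and 0.66 (adjusted p = 3.83e-38 and 7.07e-30), E2f1, a transcription factor of the entry into S phase, 0.53 and cyclin gene Ccne2 -0.54 (adjusted p = 4.85e-16 and 9.90e-13). Mcm6 and Mcm3 lie on chromosome 1, and the genes within 10 Mb of them had medians of 0.54 and 0.34. Mcm2, Mcm4, Mcm5 and Mcm7, on chromosomes 6, 16, 8 and 5, were called higher too (log2 fold changes of 0.19, 0.39, 0.26 and 0.19). They were named after their values were seen, as was Pcna, and their surroundings were not measured. Pcna, the clamp of the replication fork, was at 290 ± 5.08 cpm against 287 ± 5.26 (SD, n = 3; log2 fold change -0.02, 95% interval -0.07 to 0.03).

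**Figure D2:**
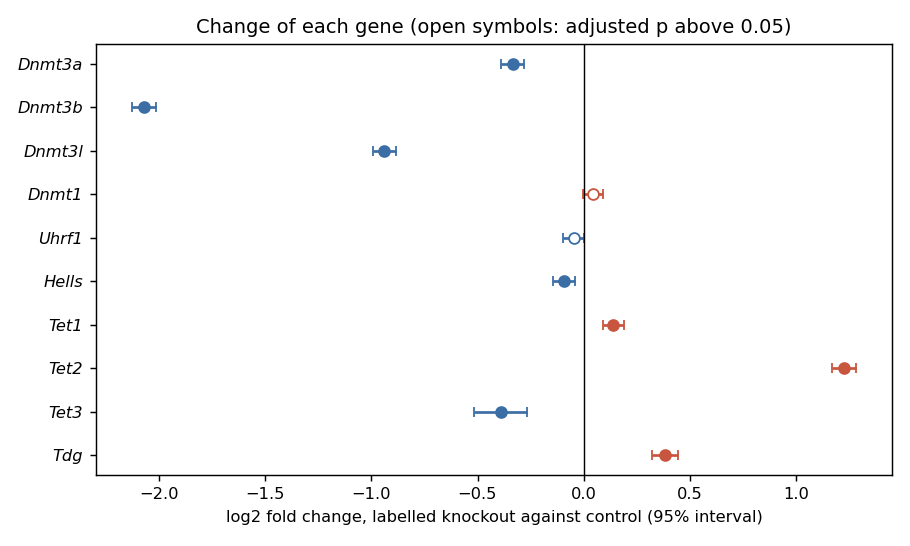
Log2 fold change of each gene (x axis, labelled knockout against control) with its 95% interval from the quasi-likelihood fit, and open symbols where the adjusted p is above 0.05. Dnmt3b at -2.07 and Dnmt3l at -0.94 lie to the left, Dnmt1, Uhrf1 and Hells within 0.1 of 0, and Tet2 at 1.23 to the right.

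Among the TET genes, which encode the dioxygenases of 5-methylcytosine, Tet2 (chromosome 3, 133463679 to 133545139, minus strand) rose most. It was at 119, 114 and 110 cpm in the control lines and at 266, 274 and 264 cpm in the lines labelled knockout. All 3 lines labelled knockout stood far above every control line. The log2 fold change was 1.23 (SE 0.03, adjusted p = 3.21e-37), 2.34-fold higher, and 594 of the genes tested had a higher one. Leaving out any single library gave values from 1.199 to 1.257.

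Tet1 (chromosome 10, 62804570 to 62908996, minus strand), the TET gene with the highest level in both groups, was at 749, 686 and 697 cpm against 784, 790 and 775. The groups did not overlap, although control line 1 stood closer to the lines labelled knockout than to control line 2. The log2 fold change was 0.14 (SE 0.02, adjusted p = 2.60e-06), 1.10-fold higher, and the call was lost against a minimum fold of 1.2. Tet3 (chromosome 6, 83362373 to 83459084, minus strand), known mainly from oocytes and neurons, was the least expressed of the 10 genes, at 19.2, 17.6 and 17.2 cpm against 14.4, 13.6 and 13.2. It fell without overlap, by 0.39 on the log2 scale (SE 0.06, adjusted p = 2.45e-07), and with 334 to 540 fragments per library it had the widest error of the set. With the dispersion fixed at 0.04 neither Tet1 nor Tet3 was called (edgeR exact test, adjusted p = 0.772 and 0.269).

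These unlike changes also shifted the composition of the TET transcripts. Per transcript length, Tet1 made up 78.0%, 77.3% and 78.2% of the summed TET level in the control lines and 64.3%, 63.9% and 64.3% in the lines labelled knockout. The difference was -13.7 percentage points, with p = 0.1 in an exact permutation test, two-sided, the smallest possible here. This share too follows from the changes of the single genes given above, so the test adds no separate evidence. Tet2 went from 19.6% ± 0.45 to 34.4% ± 0.28 and Tet3 from 2.59% ± 0.05 to 1.48% ± 0.06 (SD, n = 3). The summed level of the TET genes was 63.6 ± 2.87 FPKM in the control lines and 84.9 ± 1.09 in the lines labelled knockout. Set against each other, the catalytic de novo genes stood at 1.91 ± 0.04 times the TET level in the control lines and at 0.48 ± 0.02 times in the lines labelled knockout (SD, n = 3).

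**Figure D3:**
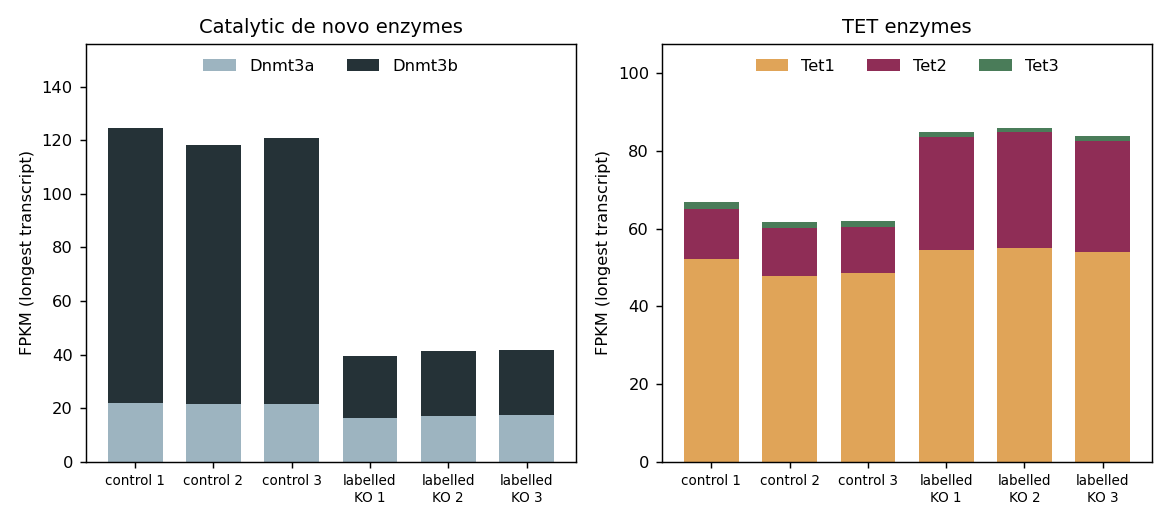
Stacked FPKM by longest transcript in each library (KO, labelled knockout), with Dnmt3a and Dnmt3b on the left and Tet1, Tet2 and Tet3 on the right. The de novo bars drop from 118 to 125 FPKM to 39.4 to 41.6 as the dark Dnmt3b part shrinks, and the TET bars rise from 61.8 to 66.9 to 83.9 to 86.1 as the Tet2 part grows.

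Tdg (chromosome 10, 82629828 to 82650799, plus strand), whose product excises the oxidised bases made by TET enzymes, was at 91.8, 88.6 and 93.6 cpm in the control lines and at 116, 122 and 119 cpm in the lines labelled knockout. The groups were well apart. The log2 fold change was 0.38 (SE 0.03, adjusted p = 8.65e-16), 1.30-fold higher. A processed pseudogene, Tdg-ps on chromosome 15, moved the other way, from 453 to 481 fragments to 176 to 226 (log2 fold change -1.12, adjusted p = 2.84e-19), and fragments shared by both had been discarded. Summed, Tdg and Tdg-ps gave 108 ± 2.995 cpm and 127 ± 2.88 (SD, n = 3), 1.17-fold higher. Whether the split of fragments between the copies affects the size given for Tdg was not tested. Its call was lost with the dispersion fixed at 0.04 (edgeR exact test, adjusted p = 0.264).

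Ordered by FPKM in the control lines, Dnmt3l was the highest at 161 ± 3.61, followed by Uhrf1 at 116 ± 1.78, Dnmt3b at 99.8 ± 3.0 and Hells at 95.4 ± 1.94 (SD, n = 3). Dnmt3b and Hells overlapped between libraries, and all other neighbours in the order were apart. Below them came Dnmt1 at 57.8 ± 0.82, Tet1 at 49.4 ± 2.35, Tdg at 26.1 ± 0.72, Dnmt3a at 21.6 ± 0.23, Tet2 at 12.5 ± 0.51 and Tet3 at 1.65 ± 0.10. In the libraries labelled knockout, Uhrf1 led at 112 ± 2.58, Hells at 89.4 ± 3.84 and Dnmt3l at 84.0 ± 3.12 overlapped, and Dnmt1 (59.6 ± 0.03) and Tet1 (54.5 ± 0.52) followed. Dnmt3b, at 23.7 ± 0.66, stood below Tdg (34.0 ± 0.94) and Tet2 (29.2 ± 0.58) there, and above Dnmt3a (17.1 ± 0.56) and Tet3 (1.26 ± 0.06). These levels rest on the longest annotated transcript, which for Dnmt3a and the TET genes is much longer than the coding part. The order and the gaps between neighbours hold for this length only. Merged exons gave 2988 bases for Dnmt3l where its longest transcript has 1822, and 16870 for Tet2 where it has 9179. Dnmt3b differed less, with 5106 and 4320, so the lead of Dnmt3l and the place of Tet2 above Dnmt3b depend on the length chosen.

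The 10 genes lie on 8 chromosomes, with Dnmt3l, Tdg and Tet1 sharing chromosome 10. Whole stretches of chromosomes 1, 6 and 8 differed between the groups in these libraries, so the surroundings of each gene were measured. The median log2 fold change of the other genes within 10 Mb ranged from -0.08 around Tdg to 0.06 around Tet2. It was 0.01 for the 203 genes around Dnmt3b and -0.08 for the 234 around Dnmt3l, so both fell relative to their surroundings. Around Tet3 on chromosome 6 it was -0.01, although the chromosome as a whole had a median of 0.17.

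The pattern over the 6 libraries (Pearson's r of log2(cpm + 1), a description in which the split between groups and the library sizes are shared) was most like that of Dnmt3b in Rfng, Gm17131 and Sema3e, with r of 0.9999 each, and 1133 of 11114 genes compared had an r above 0.99. For Tet1 the nearest were Mthfd2, Pds5a and Atf7ip (r = 0.994 to 0.995), with 7 genes above 0.99. For Uhrf1 they were Arhgap17, Rps15a and Zfp655 (r = 0.981 to 0.988), with 0 genes above 0.99.

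The wider pathway was described by 46 other genes in 4 lists, Zbtb24 among them. Together 36 were called, 19 higher and 17 lower, where 69.5% of all genes tested were called, and their median log2 fold change was 0.01. The counts of the single lists below are to be read against the same background. The list of regulators and ICF partners held the largest changes. Of its 12 genes 10 were called, 7 higher and 3 lower, with a median of 0.13. Cdca7, an ICF gene whose product recruits HELLS to chromatin, was at 142 ± 3.44 cpm in the control lines and 49.8 ± 2.23 in the lines labelled knockout (SD, n = 3; log2 fold change -1.50, SE 0.03, adjusted p = 6.67e-38), while Hells moved by -0.09. Its paralog Cdca7l, named here after its values were seen, went from 39.7 ± 0.98 to 58.2 ± 1.147 cpm (0.55, adjusted p = 4.04e-18).

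Prdm14, a repressor of de novo methyltransferase genes in mESCs, was at 20.2 ± 1.48 cpm in the control lines and 52.0 ± 1.74 in the lines labelled knockout, 1.36 on the log2 scale (SE 0.05, adjusted p = 8.14e-30). It lies on chromosome 1, and the 69 genes within 10 Mb of it had a median of 0.49. Zfp57, which guards methylation at imprinted sites, rose 1.49-fold (log2 fold change 0.58, adjusted p = 9.92e-27), and its partner Trim28 was at 2387 ± 15.7 against 2396 ± 71.6 cpm (SD, n = 3; 95% interval of the log2 fold change -0.04 to 0.05). Dppa3, which shields methylation from oxidation and restrains UHRF1, was lower by 0.11 on the log2 scale (adjusted p = 0.0118), and the 175 genes around it on chromosome 6 had a median of 0.54.

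Among 11 genes for readers of methylated DNA and their relatives, 9 were called, 3 higher and 6 lower, with a median of -0.20. Mbd4, a reader that is also a glycosylase for deaminated sites, had a log2 fold change of 0.73 (adjusted p = 8.84e-20), where the 164 genes around it had a median of 0.51. Mbd3, the subunit of the NuRD complex, fell by 0.49 and Mbd2 by 0.54 on that scale (adjusted p = 4.12e-22 and 1.01e-08), and Zbtb33 (Kaiso) by 0.30 (adjusted p = 4.75e-06). Zbtb4, with 21 to 49 fragments and named after its values were seen, was lowest at -0.998 (adjusted p = 4.25e-05). Uhrf2, the paralog of Uhrf1, was at 49.9 ± 0.13 and 50.2 ± 1.37 cpm (SD, n = 3; 95% interval of the log2 fold change -0.06 to 0.09).

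Of 13 base excision repair genes 8 were called, 5 higher and 3 lower, with a median of 0.04. Ogg1, a glycosylase for oxidised guanine, and Parp1, the sensor of strand breaks, had log2 fold changes of 0.83 and 0.79 (adjusted p = 1.07e-18 and 1.25e-33), in surroundings with medians of 0.50 and 0.49. Polb, the gap-filling polymerase, had -0.37 (adjusted p = 1.41e-08) where its surroundings had -0.60, and the glycosylase gene Neil2 had 0.34 (adjusted p = 0.00114). Among 10 genes supplying S-adenosylmethionine, the methyl donor, 9 were called, 4 higher and 5 lower, with a median of -0.06. Mtr, methionine synthase, Shmt2 and Shmt1, the serine hydroxymethyltransferases, rose by 0.60, 0.58 and 0.21 on the log2 scale (adjusted p = 9.35e-21, 4.15e-24 and 1.92e-10). Mat2a, which makes the methyl donor, was at 744 ± 4.56 and 714 ± 2.34 cpm (SD, n = 3; log2 fold change -0.06, adjusted p = 0.0157).

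**Figure D4:**
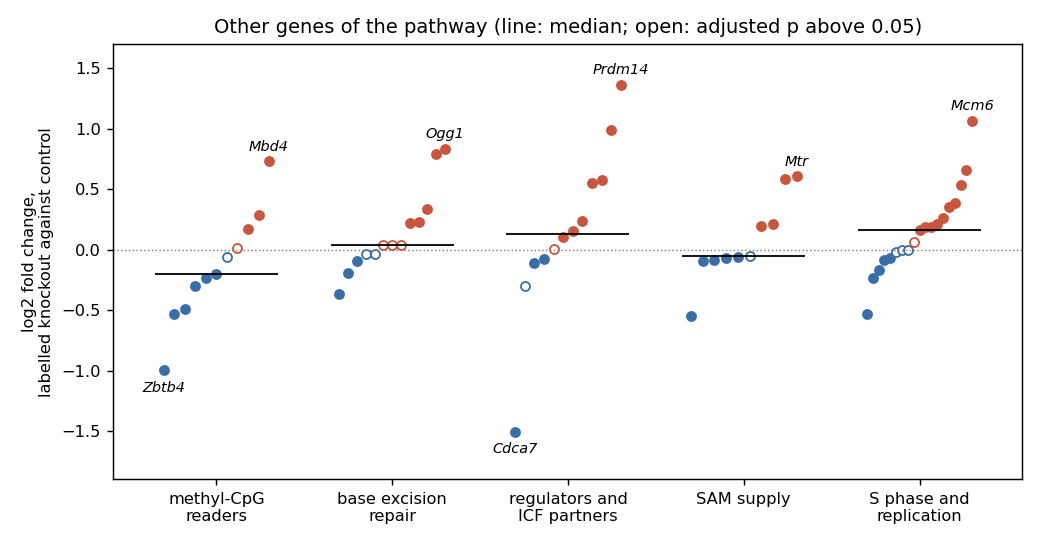
Log2 fold change (y axis, labelled knockout against control) of each tested gene in the 4 pathway lists and the S-phase list, ordered within a list, with the list median as a line and open symbols where the adjusted p is above 0.05. The outermost genes of a list are named where they changed by over 0.6, and SAM is S-adenosylmethionine. Cdca7 at -1.50 and Prdm14 at 1.36 are the extremes, and the medians lie between -0.20 and 0.16.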

How the data were processed

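The authors sequenced the libraries as read pairs, removed rRNA reads with Bowtie2 2.1.0, mapped the rest to mm10 with TopHat 2.0.10 and counted fragments per gene of GENCODE M4 with HTSeq 0.6.1 in union mode, using the strand and dropping fragments of several genes or locations, which lowers the counts of genes with close copies. The deposited values are raw counts per gene and library (versions per the submitters' processing notes and the methods).

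Symbols, positions and transcript lengths were taken from GENCODE M21, on the same build, by Ensembl identifier without version, which matched 42425 of 43309 genes. A gene that reached 10 counts in any library was tested with edgeR 4.0.16 in R 4.3.3 (TMM, glmQLFit, glmQLFTest, no covariate), with Benjamini-Hochberg adjustment over all 16823 genes and an FDR of at most 0.05. All adjusted p-values are from this test unless stated. Standard errors are the log2 fold change divided by the square root of F. FPKM used the longest transcript and TMM-scaled totals. Exact permutation tests used scipy 1.17.1. Promoter windows came from RefSeq. Without molecular identifiers PCR duplicates could not be removed.

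The 10 genes and all lists were chosen with earlier results of these data known. Besides the 10 genes, the rule named Zbtb24, up to 4 genes of each pathway and S-phase list by size of change (adjusted p at most 0.05, mean of at least 100 counts, groups apart), 7 genes set by name and 4 pluripotency markers. Some genes of these lists are not reported here. Alternatives changed the scaling, the filter, the test (DESeq2 1.42.0, likelihood ratio, fixed dispersion), the FDR, a minimum fold, the length, the libraries, the chromosomes and the replicate block.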

Additional observations from a re-analysis of the deposited data

How the results depend on the processing

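The 10 genes were refitted under 17 alternatives, 169 values in all since Tet3 drops out without chromosome 6. Direction and side of the threshold held in 155 of them, 7 lost the call, 6 gained it and 1 reversed, Dnmt1 at -0.004271 with library totals alone. That scaling moved the median of all genes by less than 0.05 on the log2 scale. Dnmt3b, Dnmt3l and Tet2 kept their calls in all 17, with ranges of -2.12 to -2.05, -0.99 to -0.91 and 1.18 to 1.26. The number of the 10 genes called fell from 8 to 3 with the dispersion of all genes fixed at 0.04 and to 2 when a log2 change of 1 or more in size was also required, and was 6 to 9 otherwise. The 46 pathway genes called went from 36 to 8, 15 and 2, and all genes called from 11697 to 4342, 6837 and 2865, with the fixed dispersion, a minimum fold of 1.2 and the required log2 change of 1. With library totals alone, 15 of the 35 pathway genes called were higher and 20 lower. The smaller changes named in the report thus rest on the low spread between these clones. Both composition differences kept their direction with merged exon lengths, with raw counts and with each library left out, but their size depended on the length used. The difference in the Dnmt3b share was -20.2 percentage points with merged exon lengths and -29.1 with raw counts. That in the Tet1 share was -10.2 and -10.8.

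The replicate numbers do not pair the lines by any label, and deviations of same-numbered lines correlated at 0.00617, 0.0715 and 0.0155 (none above 0.1, and control line 1 was closest to line 3 labelled knockout). With the replicate block 8 of the 10 genes were called, with Dnmt3b at -2.07. Counts per gene cannot show transcript starts, splice forms or exons, and RNA levels do not measure methylation.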
